A study of Mus musculus with 17 samples.

Results

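Sympathetic ganglia of wild-type mice were compared between postnatal day 18 and the day of birth, to describe how gene expression differs between these stages of normal maturation. The comparison used the 7 wild-type arrays of the 17 in the series, 3 from day 18 (P18 Wt) and 4 from birth (P0 Wt). It covered 9973 of 17306 probe sets, those with a deposited log2 value above 4 in at least 2 of the 17 arrays, which are called genes here. The study had made knock-in mice with the activating F1178L substitution in Alk, a receptor tyrosine kinase gene that is mutated in some neuroblastomas, and profiled their ganglia on Affymetrix mouse expression arrays. The P18 Wt and P0 Wt mice carried no mutant Alk allele, and the labels give the strain of all mice as C57BL/6. Mice with the mutation on 1 allele (Het, 2 arrays at P18 and 4 at P0) give the same comparison of stages a second time, and their stage differences are set against those of Wt at the end. The 4 arrays of mice with the mutation on both alleles (Hom), all from P0, enter no comparison, but they count in the filter and in the spread that the fit shares among all 17 arrays. Over the 7 Wt arrays alone 9659 of the genes pass the same filter. By the study's methods each sample was RNA of pooled superior cervical and stellate ganglia, so a value averages over ganglia and over all the cells dissected with them. In such bulk RNA, fewer cells of a type and less RNA per cell cannot be told apart. Stage and batch cannot be told apart, since no source used here names a batch or a scan date for any array. The labels do not say whether samples of a group came from separate animals, so the p-values measure only the spread between these samples, which may be technical.

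Sympathetic ganglia hold the postganglionic neurons that release noradrenaline onto blood vessels, heart, glands and fat. Around birth and in the weeks after it, their last neuroblasts leave the cell cycle, axons grow into target organs, neurons depend on nerve growth factor from those targets, and preganglionic axons from the spinal cord form nicotinic synapses on them. Noradrenaline is made from tyrosine by tyrosine hydroxylase (Th), aromatic amino acid decarboxylase (Ddc) and dopamine beta-hydroxylase (Dbh), is loaded into vesicles by the transporter Slc18a2, and is taken back by Slc6a2.

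All 7 arrays carried the RNA of sympathetic neurons at a high level, with Th between 13.17 and 13.33 in P18 Wt arrays and between 11.88 and 12.24 in P0 Wt arrays. The median log2 value over all probe sets was 4.41 to 4.44 in P18 Wt arrays and 4.45 to 4.60 in P0 Wt arrays. The first principal component of the 7 arrays carried 74.1% of their variance and separated both stages, and the next one carried 10.1% and set P0 Wt replicate 3 apart. Transcripts of neighbouring tissue were present in several arrays. The median log2 value of 16 measured skeletal muscle genes was 6.29, 2.84 and 2.78 in P18 Wt replicates 1, 2 and 3, against 10.15, 9.20, 7.04 and 2.70 in P0 Wt replicates 1, 2, 3 and 4. Adult and fetal muscle genes were thus high in P0 Wt replicates 1 to 3 and present in P18 Wt replicate 1. In P0 Wt replicate 4 their median was near background, though Acta1, skeletal actin, was at 6.21 and Eno3, the muscle enolase, at 5.36. The median of 6 fat genes was 8.70, 5.45 and 5.08 in P18 Wt arrays, against 8.24, 8.25, 9.75 and 8.42 in P0 Wt arrays. Pou4f1, a transcription factor of sensory neurons that sympathetic neurons lack, was at 2.57, 2.58 and 2.60 in P18 Wt arrays, against 5.94, 2.57, 2.52 and 5.40 in P0 Wt arrays, so that it stood above background in P0 Wt replicates 1 and 4. Other sensory neuron genes were also above background in the remaining P0 Wt arrays, such as Slc17a6, a vesicular glutamate transporter, at 5.70 in replicate 2, and Tac1, the substance P precursor, at 5.63 in replicate 3. Per-array values are given in replicate order throughout, and values below 4 lie near the background of the arrays.

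**Figure D1:**
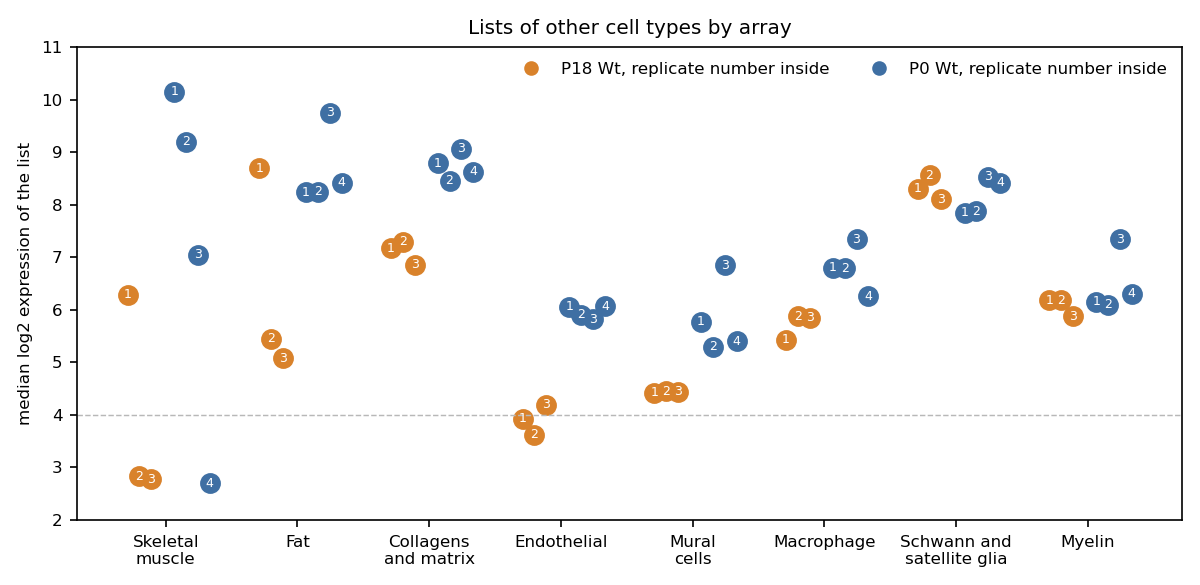
Median log2 expression (vertical axis) of the measured genes of 8 lists that mark cell types other than neurons, for each of the 3 P18 Wt arrays (orange) and 4 P0 Wt arrays (blue), with the replicate number inside each point and a dashed line at log2 4. Muscle genes are high in P0 Wt replicates 1 to 3, fat genes are low in P18 Wt replicates 2 and 3, and matrix, endothelial and mural genes are lower in all 3 P18 Wt arrays than in any P0 Wt array.

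Most measured genes differed between stages. With limma, 5480 of 9973 genes (54.9%) passed an adjusted p of 0.05 and are called here, 2783 higher at P18 (27.9%) and 2697 lower (27%). Of the called genes, 1157 were at least 2-fold higher and 1069 at least 2-fold lower at P18, where a log2 difference of 1 is 2-fold, and 309 and 319 were at least 4-fold higher and lower. The 3 P18 Wt values and 4 P0 Wt values did not overlap for 5758 genes (57.7%), of which 5039 were also called. The median log2 difference over all genes was 0.01 and the median SE of a difference was 0.17. Because so many genes differed, a count of called members in any list below is to be read against these shares. Without the 4 arrays in which the median of the muscle genes was above 4, called below the arrays with muscle transcripts, 2 P18 Wt arrays and 1 P0 Wt array were left. The lone array, P0 Wt replicate 4, was assumed to vary like the other groups. It carried transcripts of other tissue. Its sensory neuron list had a median of 7.71, against 3.55 and 3.31 in P18 Wt replicates 2 and 3. The fat list had 8.42, against 5.45 and 5.08. That comparison is therefore not free of neighbouring tissue. Counts of a list that moved by over 1.5 times there are given with the list. The count of all called genes moved by over 1.5 times as well, as given in the closing section. Such a move is thus not particular to a list. Some genes entered only through the stage where they are high: all 4 P0 Wt arrays were at or under 4 for 248 of the genes called higher, and all 3 P18 Wt arrays for 417 of those called lower. For such genes the sizes below are differences from a level near background.

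**Figure D2:**
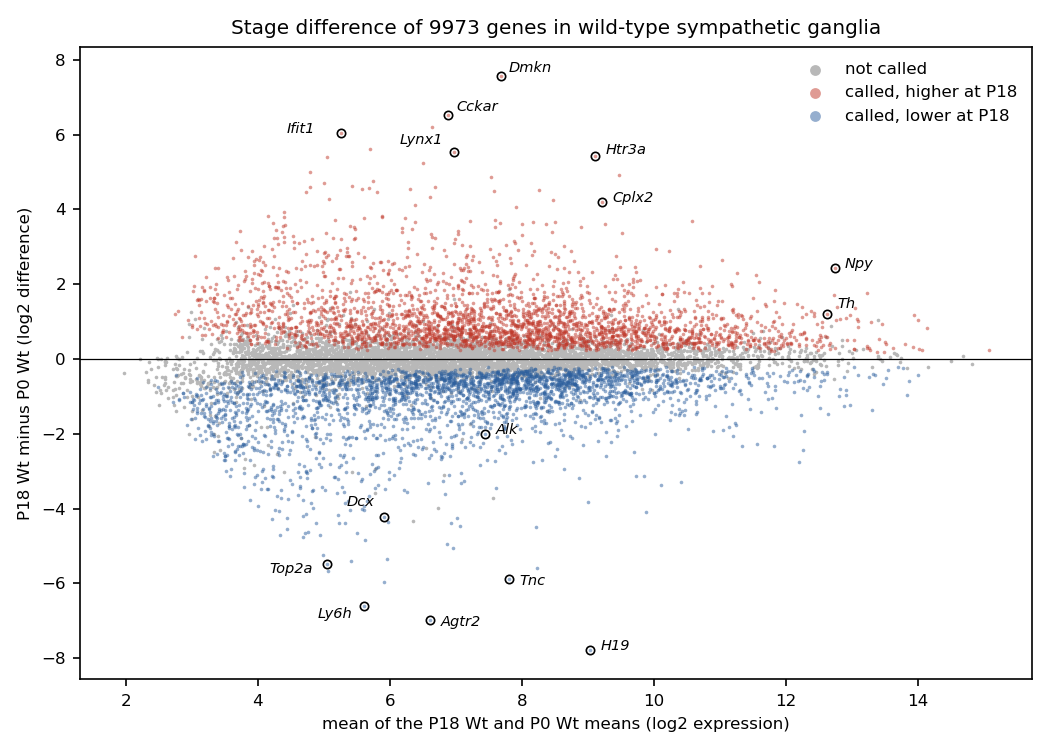
Log2 difference between the P18 Wt and P0 Wt means (vertical axis) against the mean of both (horizontal axis, log2 expression) for 9973 genes, called higher at P18 in red, called lower in blue and not called in grey, with 15 genes circled. Differences of similar size occur in both directions, from Dmkn and Cckar at the top to Agtr2 and H19 at the bottom.

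The largest rises were those of Dmkn, Cckar, Tspan8, Ifit1, Lynx1, Htr3a, Gpat2, Slc35d3, Gpr37l1, Avil, Apod and Nrip3, in that order. Dmkn, which encodes dermokine, a secreted protein known from the epidermis, had log2 values of 11.49, 11.37 and 11.54 in P18 Wt arrays, against 4.25, 3.67, 5.05 and 2.59 in P0 Wt arrays, a difference of 7.58 ± 0.56 (adjusted p = 2.42e-08). Cckar, the type A receptor for the gut and brain peptide cholecystokinin, had 10.16, 10.20 and 10.07 in P18 Wt arrays, against 2.99, 2.87, 2.78 and 5.86 in P0 Wt arrays, a difference of 6.51 ± 0.51 (adjusted p = 4.7e-08). In both genes the groups were far apart, and the P0 Wt arrays of Cckar were near background except replicate 4. Tspan8, a tetraspanin membrane protein, was also highest at P0 in that replicate, with 9.56, 9.76 and 9.92 in P18 Wt arrays, against 2.67, 3.35, 2.66 and 5.52 in P0 Wt arrays, a difference of 6.20 ± 0.49 (adjusted p = 5.35e-08). Htr3a, which encodes the subunit that every serotonin-gated 5-HT3 channel needs, had 11.65, 12.06 and 11.80 in P18 Wt arrays, against 3.67, 7.03, 6.49 and 8.39 in P0 Wt arrays, so the 3 P18 Wt arrays were close together while the P0 Wt arrays spread over more than 4 log2 units. Its difference was 5.44 ± 0.86 (adjusted p = 7.84e-05). Avil, the actin-binding protein advillin known from sensory neurons, had 11.96, 12.13 and 11.73 in P18 Wt arrays, against 9.51, 5.96, 4.23 and 8.37 in P0 Wt arrays, a difference of 4.93 ± 0.85 (adjusted p = 0.000176). Its highest P0 Wt values were in replicates 1 and 4, which carried other sensory neuron transcripts, and without these arrays it was called higher as well, at 6.85 (adjusted p = 2.27e-08). Lynx1, a membrane-anchored protein of the Ly6 family that binds nicotinic acetylcholine receptors, had 9.75, 9.70 and 9.77 in P18 Wt arrays, against 5.52, 3.13, 3.76 and 4.41 in P0 Wt arrays, a difference of 5.53 ± 0.37 (adjusted p = 8.41e-09). Gpat2, a mitochondrial acyltransferase of glycerolipid synthesis, and Gpr37l1, an orphan receptor of glia, were near background at P0, with 2.17 to 2.46 and 2.07 to 2.93, and reached 7.28 to 8.02 and 7.06 to 7.50 at P18. Apod, a lipid-carrying lipocalin made by glia and fibroblasts, differed by 4.87 ± 0.51 (adjusted p = 9.36e-07).

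The largest falls were those of H19, Agtr2, Ly6h, Tnc, Eln, Top2a, Tox3, Vash2, Nrk, Fbn2, Mfap2 and C2cd4b. H19, an imprinted non-coding RNA of fetal tissues, had 5.96, 4.75 and 4.73 in P18 Wt arrays, against 13.37, 12.90, 13.02 and 12.45 in P0 Wt arrays, and was lower at P18 by 7.79 log2 units (adjusted p = 1.41e-11). Agtr2, the type 2 angiotensin receptor, which is abundant in fetal tissue, had 3.63, 2.92 and 2.85 in P18 Wt arrays, against 10.20, 10.22, 10.27 and 9.71 in P0 Wt arrays, a difference of -6.97 ± 0.25 (adjusted p = 1.41e-11). Ly6h, like Lynx1 a Ly6 family protein that binds nicotinic receptors, went the other way, with 2.16, 2.59 and 2.17 in P18 Wt arrays, against 8.81, 9.03, 8.55 and 9.23 in P0 Wt arrays, a difference of -6.60 ± 0.27 (adjusted p = 5.13e-11). Vash2, a tubulin carboxypeptidase, was even within each stage, at 3.23 to 3.31 in P18 Wt arrays and 8.57 to 8.67 in P0 Wt arrays. Tox3, a nuclear protein of the HMG-box family, differed by -5.39 ± 0.32 (adjusted p = 2.1e-09), and Nrk, an X-linked kinase of fetal tissues, by -5.24 ± 0.47 (adjusted p = 2.01e-07). Tnc, Eln, Fbn2 and Mfap2 encode extracellular matrix proteins and Top2a a mitotic enzyme, and these are described with their groups below.

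The machinery of noradrenaline was higher at P18 throughout. All 14 measured genes of 16 written for catecholamine synthesis, storage, uptake and breakdown rose, with no overlap between stages in any of them, and their median difference was 1.18, beside 0.01 over all genes. Th had 13.19, 13.17 and 13.33 in P18 Wt arrays, against 11.92, 12.24, 12.09 and 11.88 in P0 Wt arrays, a difference of 1.20 ± 0.13 (adjusted p = 2.21e-06). Dbh had 13.55, 13.54 and 13.56 in P18 Wt arrays, against 12.21, 12.62, 12.56 and 12.14 in P0 Wt arrays, a difference of 1.17 ± 0.10 (adjusted p = 1.52e-07), and Slc18a2, the vesicular monoamine transporter of neurons, had 13.56, 13.45 and 13.43 in P18 Wt arrays, against 12.09, 12.29, 11.95 and 11.98 in P0 Wt arrays, a difference of 1.40 ± 0.12 (adjusted p = 7.7e-08). These 3 genes were therefore more than 2-fold higher in every P18 Wt array than the P0 Wt mean. The largest rise was that of Maob, a mitochondrial monoamine oxidase, with 12.29, 12.21 and 12.56 in P18 Wt arrays, against 9.52, 9.79, 9.71 and 9.85 in P0 Wt arrays and a difference of 2.64 ± 0.11 (adjusted p = 5.3e-11), against 1.14 ± 0.093 (adjusted p = 6.91e-08) for Maoa, its partner enzyme. Slc18a1, the vesicular transporter of chromaffin cells, differed by 2.31 ± 0.41 (adjusted p = 0.000191). In Het it was not called, at 0.49 ± 0.46 (adjusted p = 0.412), and its stage differences were not called unlike (adjusted p = 0.32). A list of chromaffin and carotid body genes, which holds Slc18a1 and Th too, had 2 of 10 measured members higher and 5 lower (median -0.55). Among the enzymes that make or recycle tetrahydrobiopterin, the cofactor of Th, Spr, Pcbd1 and Pts rose by 1.93, 1.35 and 1.34, and Gch1 and Qdpr by 0.56 and 0.32. Slc6a2, which takes noradrenaline back up, rose by 0.84 (adjusted p = 0.00376) and Ddc by 0.84 (adjusted p = 6.6e-05).

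The promoters of Slc18a2 and Th are shown because both genes rose and both windows hold the full palindrome of the cyclic AMP response element (CRE), TGACGTCA, printed in capitals. This motif lies in 1.79% of 32851 windows of the same length (RefSeq, build GRCm38.p6, 250 bases before to 50 after each gene's start). It lies in 2 of the 11 windows of the 10 catecholamine genes that rose and have one. A match is a run of letters, not a measured binding site. The windows are chr19:59260628-59260927 on the plus strand for Slc18a2, with the motif from base -4 to 4, and chr7:142899946-142900245 on the minus strand for Th, with the motif from base -45 to -38, counted from the gene's start.
Slc18a2: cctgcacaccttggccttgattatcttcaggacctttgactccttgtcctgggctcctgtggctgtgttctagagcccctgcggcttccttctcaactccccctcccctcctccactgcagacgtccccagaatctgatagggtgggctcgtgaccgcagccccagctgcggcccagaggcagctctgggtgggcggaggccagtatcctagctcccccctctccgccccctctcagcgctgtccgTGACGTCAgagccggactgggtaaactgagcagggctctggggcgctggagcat
Th: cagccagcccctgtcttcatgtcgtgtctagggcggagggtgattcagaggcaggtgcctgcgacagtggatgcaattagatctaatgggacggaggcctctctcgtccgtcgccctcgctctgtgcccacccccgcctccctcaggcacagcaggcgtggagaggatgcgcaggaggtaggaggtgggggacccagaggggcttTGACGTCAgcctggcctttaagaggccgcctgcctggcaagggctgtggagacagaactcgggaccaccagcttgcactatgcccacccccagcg

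Neuropeptide genes split. Of 19 measured genes for peptide precursors, granins and their processing enzymes, 7 rose and 6 fell, and the list's median difference was -0.12. Npy, the peptide co-released with noradrenaline onto vessels, had 13.90, 13.81 and 14.17 in P18 Wt arrays, against 10.75, 11.78, 12.52 and 11.03 in P0 Wt arrays, a difference of 2.44 ± 0.35 (adjusted p = 2.49e-05). Its P0 Wt arrays spread more widely than its P18 Wt arrays. Gal, which encodes galanin, had 12.46, 11.99 and 12.77 in P18 Wt arrays, against 10.06, 9.96, 10.22 and 10.18 in P0 Wt arrays, a difference of 2.30 ± 0.17 (adjusted p = 2.42e-08), and its P0 Wt arrays were close together. Scg2, a granin of dense-core vesicles, differed by 2.24 ± 0.21 (adjusted p = 2.7e-07), Pcsk1, a prohormone convertase, by 2.21 ± 0.40 (adjusted p = 0.00022), and Pam, which amidates peptides, by 1.54 ± 0.30 (adjusted p = 0.000385). In the other direction, Penk, the enkephalin precursor, had 4.999, 5.11 and 6.31 in P18 Wt arrays, against 7.84, 8.17, 8.84 and 7.53 in P0 Wt arrays, a difference of -2.62 ± 0.37 (adjusted p = 2.45e-05), Cartpt, the precursor of CART peptides, differed by -1.12 ± 0.20 (adjusted p = 0.000235), and Chgb, another granin, by -0.95 ± 0.17 (adjusted p = 0.000201). Tac1, the substance P precursor of sensory neurons, was at 2.92, 2.80 and 2.83 in P18 Wt arrays, against 8.68, 3.43, 5.63 and 9.59 in P0 Wt arrays. Its highest P0 Wt arrays were replicates 1 and 4, as for Pou4f1, and without them its difference was -1.68 (adjusted p = 0.065).

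**Figure D3:**
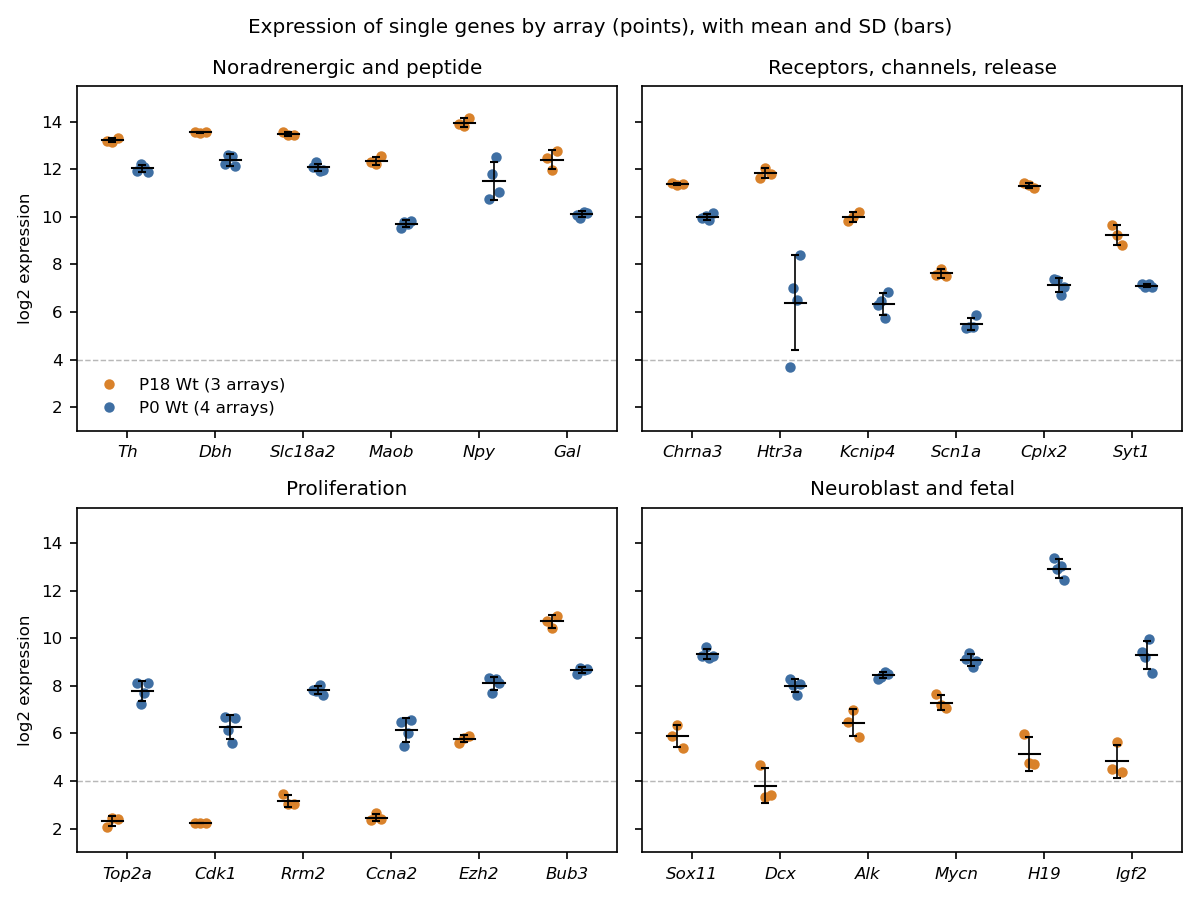
Log2 expression (vertical axis) of 24 genes in 4 groups, with 1 point per array, P18 Wt (orange, 3 arrays) left of P0 Wt (blue, 4 arrays), black bars for the mean and its SD, and a dashed line at log2 4. In the upper panels every P18 Wt point lies above every P0 Wt point of the same gene, and in the lower panels it lies under every P0 Wt point, except for Bub3.

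Most transcription factors that specify sympathetic neurons fell. Of 14 measured factors, 9 fell and 3 rose, with a median difference of -0.67 (7 and 1 without the arrays with muscle transcripts). Gata3, needed for noradrenergic differentiation, had 8.82, 8.83 and 8.41 in P18 Wt arrays, against 10.66, 10.49, 10.43 and 10.37 in P0 Wt arrays, a difference of -1.80 ± 0.12 (adjusted p = 9.6e-09). Tfap2b and Hmx1, factors of the sympathetic lineage, fell by 1.25 (adjusted p = 7.1e-08) and 1.23 (adjusted p = 1.41e-07), and Phox2a, a homeodomain factor that drives Th and Dbh, by 0.38 (adjusted p = 0.00132). Insm1, a zinc finger factor of neuroblasts, differed by -1.49 ± 0.34 (adjusted p = 0.00144). The largest falls in this list were those of Sox11, with 5.91, 6.35 and 5.41 in P18 Wt arrays, against 9.26, 9.65, 9.19 and 9.25 in P0 Wt arrays and a difference of -3.45 ± 0.20 (adjusted p = 2.22e-09), and Sox4, with 5.48, 5.63 and 5.20 in P18 Wt arrays, against 8.17, 8.35, 7.60 and 8.33 in P0 Wt arrays and a difference of -2.68 ± 0.22 (adjusted p = 8.34e-08), SoxC factors that maintain immature neurons. Hand2, a bHLH factor that sustains noradrenergic identity, was low in all 7 arrays, with 4.78, 4.82 and 4.69 in P18 Wt arrays, against 4.39, 4.51, 4.51 and 4.31 in P0 Wt arrays, and rose by 0.33 (adjusted p = 0.0196). Tlx2 and Eya1 rose by 1.12 (adjusted p = 1.76e-06) and 0.58 (adjusted p = 0.00061), and Gata2 was not called, at -0.041 ± 0.13 (adjusted p = 0.803).

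Genes of neuroblasts and of growing axons fell alongside. Of 27 measured growth-stage and neuroblast genes, 17 fell and 4 rose, with a median of -0.57 (14 and 2 without the arrays with muscle transcripts). Dcx, the microtubule-associated protein doublecortin of migrating and newly formed neurons, had 4.66, 3.34 and 3.41 in P18 Wt arrays, against 8.31, 8.04, 7.62 and 8.09 in P0 Wt arrays, a difference of -4.21 ± 0.30 (adjusted p = 1.82e-08). Gap43, the growth cone protein, had 12.18, 12.28 and 12.46 in P18 Wt arrays, against 13.62, 13.40, 12.71 and 13.48 in P0 Wt arrays, a difference of -0.997 ± 0.16 (adjusted p = 6.96e-05), and so stayed among the high values at P18. Crmp1 and Marcksl1, cytoskeletal regulators of growing axons, differed by -1.90 ± 0.12 (adjusted p = 6.73e-09) and -1.94 ± 0.10 (adjusted p = 5.95e-10). The rising members were Id3, Cited2, Hes1 and Id1, transcriptional regulators at 1.34 ± 0.24 (adjusted p = 0.000213), 0.84 ± 0.16 (adjusted p = 0.000432), 0.79 ± 0.23 (adjusted p = 0.00919) and 0.53 ± 0.22 (adjusted p = 0.0498). Hes1 was near background in every Wt array, at 3.31 to 3.59 at P18 and 2.30 to 3.22 at P0. It passed the filter through the P18 Het arrays, at 4.35 and 4.39. Of 25 measured cytoskeletal genes of the axon, 5 rose, 7 fell and 13 were not called. Among intermediate filament genes, Nefh, the heavy neurofilament chain added late in axon maturation, rose by 1.17 (adjusted p = 2.66e-05), while Ina, alpha-internexin of immature axons, fell by 1.76 (adjusted p = 1.32e-09) and Nefm, the medium chain, by 0.80 (adjusted p = 0.00116). Among tubulins, Tuba4a had 11.93, 11.78 and 12.10 in P18 Wt arrays, against 9.57, 9.51, 9.17 and 9.56 in P0 Wt arrays, a difference of 2.48 ± 0.15 (adjusted p = 2.29e-09), and Tubb6 had 5.55, 5.37 and 5.93 in P18 Wt arrays, against 8.14, 7.95, 9.01 and 7.78 in P0 Wt arrays, a difference of -2.60 ± 0.31 (adjusted p = 3.7e-06). Of 21 axon guidance genes, 11 fell and 2 rose (6 and 1 without the arrays with muscle transcripts). Slit2, a repellent ligand, fell by 2.24 (adjusted p = 1.7e-06), and Nrp1 and Nrp2, receptors for class 3 semaphorins, fell by 1.91 (adjusted p = 4.19e-11) and 1.53 (adjusted p = 7.04e-09). Robo1, a Slit receptor, went the other way, with 9.66, 9.51 and 9.20 in P18 Wt arrays, against 6.29, 5.78, 5.77 and 7.35 in P0 Wt arrays, a difference of 3.16 ± 0.49 (adjusted p = 5.13e-05).

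Genes of synaptic input and of transmitter release rose more often than they fell. Of 11 measured ligand-gated channel genes, 7 rose and 2 fell (median 0.87). Subunits of the ganglionic nicotinic receptor rose. Chrna3 had 11.43, 11.34 and 11.39 in P18 Wt arrays, against 9.94, 10.05, 9.88 and 10.15 in P0 Wt arrays, a difference of 1.39 ± 0.10 (adjusted p = 1.88e-08). Chrnb4 differed by 1.43 ± 0.10 (adjusted p = 2.09e-08) and Chrna5 by 0.56 ± 0.15 (adjusted p = 0.00563). Htr3b, the partner subunit of Htr3a, differed by 1.91 ± 0.34 (adjusted p = 0.000214), and Gria1, an AMPA-type glutamate receptor subunit, by 2.33 ± 0.34 (adjusted p = 3.15e-05). The falling members were P2rx3 and Grik1, channels known from sensory neurons. P2rx3 had 2.77, 2.44 and 2.49 in P18 Wt arrays, against 6.16, 4.99, 3.49 and 7.58 in P0 Wt arrays, and Grik1 had 3.33, 3.13 and 3.14 in P18 Wt arrays, against 8.74, 3.82, 3.50 and 6.89 in P0 Wt arrays. Among the 7 arrays both were highest in P0 Wt replicates 1 and 4, the arrays with Pou4f1. In P0 Het arrays P2rx3 was at 4.2 to 4.6 and Grik1 at 4.9 to 5.6. Their Het differences were not called, at -1.61 ± 0.70 (adjusted p = 0.069) and -1.91 ± 1.04 (adjusted p = 0.148). The part of sensory neurons in these falls was not tested. Of 27 measured genes of the synaptic vesicle and its release machinery, 16 rose and 3 fell (median 0.84). Cplx2, a complexin that clamps and promotes vesicle fusion, had 11.41, 11.34 and 11.20 in P18 Wt arrays, against 7.37, 7.34, 6.73 and 7.07 in P0 Wt arrays, a difference of 4.19 ± 0.21 (adjusted p = 3.44e-10). Syt1, the calcium sensor of fast release, differed by 2.13 ± 0.22 (adjusted p = 9.94e-07), Napb, which helps to take fused SNARE complexes apart, by 2.32 ± 0.25 (adjusted p = 1.66e-06), Rab3c, a vesicle GTPase, by 1.94 ± 0.11 (adjusted p = 1.7e-09), and Syn2, a synapsin, by 1.46 ± 0.11 (adjusted p = 2.33e-08). Rims2, an active zone scaffold, fell by 2.05 (adjusted p = 9.86e-06), and Synpr, a vesicle membrane protein, was highest in P0 Wt replicates 1 and 4 like the sensory neuron genes, at 4.10, 2.44 and 1.99 in P18 Wt arrays and 8.08, 5.13, 2.88 and 8.63 in P0 Wt arrays. Stx1a and Syt4 were not called, at -0.083 ± 0.15 (adjusted p = 0.655) and 0.035 ± 0.086 (adjusted p = 0.754).

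Of 17 measured potassium channel genes and partners, 11 rose and 3 fell (median 1.02). Kcnip4, a calcium-binding partner of A-type channels, had 9.80, 9.97 and 10.21 in P18 Wt arrays, against 6.30, 6.45, 5.74 and 6.83 in P0 Wt arrays, a difference of 3.66 ± 0.20 (adjusted p = 8.22e-10). Kcna1, a delayed rectifier of axons, had 8.33, 8.07 and 8.42 in P18 Wt arrays, against 6.24, 3.65, 7.38 and 4.17 in P0 Wt arrays, with a wide spread at P0, and Kcnab2, an auxiliary subunit of such channels, had 6.40, 6.56 and 6.38 in P18 Wt arrays, against 4.31, 3.93, 3.89 and 4.03 in P0 Wt arrays, a difference of 2.40 ± 0.16 (adjusted p = 8.02e-09). Kcnq5, of the family that carries the M current, differed by 1.85 ± 0.22 (adjusted p = 4.21e-06). The largest fall was that of Kcnmb2, an auxiliary subunit of the large calcium-activated channel, with 2.27, 2.34 and 2.28 in P18 Wt arrays, against 7.62, 7.36, 6.41 and 6.88 in P0 Wt arrays and a difference of -4.77 ± 0.38 (adjusted p = 5.17e-08), and Kcnma1, the pore of that channel, fell as well, by 0.80 (adjusted p = 0.000424). Of 17 sodium and calcium channel genes, 7 rose and 4 fell (median 0.03), and 4 and 2 without the arrays with muscle transcripts. Scn1a, a pore-forming sodium channel gene, had 7.55, 7.82 and 7.50 in P18 Wt arrays, against 5.33, 5.37, 5.35 and 5.87 in P0 Wt arrays, a difference of 2.14 ± 0.16 (adjusted p = 2.92e-08), and Scn2b, an auxiliary subunit, differed by 1.87 ± 0.15 (adjusted p = 7.3e-08). Scn2a and Scn3a, pore-forming genes of early neurons, fell by 0.62 (adjusted p = 0.000281) and 0.42 (adjusted p = 0.00727), and the auxiliary Scn3b by 1.28 (adjusted p = 5.28e-07). Cacna2d3 and Cacnb4, auxiliary subunits of calcium channels, rose by 1.74 (adjusted p = 8.09e-07) and 1.07 (adjusted p = 1.97e-05). Scn8a was not called, at -0.19 ± 0.17 (adjusted p = 0.359).

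Receptors for growth factors moved in both directions, with 5 of 11 measured members higher and 5 lower (3 and 4 without the arrays with muscle transcripts). Alk, the gene mutated in the other mice of the series, had 6.50, 6.98 and 5.85 in P18 Wt arrays, against 8.31, 8.39, 8.60 and 8.50 in P0 Wt arrays, a difference of -2.002 ± 0.19 (adjusted p = 3.38e-07), which is a 4-fold lower level at P18. Ltk, which encodes the receptor kinase closest to Alk in sequence, had 8.31, 8.90 and 8.13 in P18 Wt arrays, against 3.49, 5.08, 4.63 and 4.12 in P0 Wt arrays, a difference of 4.11 ± 0.50 (adjusted p = 4.76e-06), so this receptor pair moved in opposite directions with no overlap between stages in either gene. Ret, the signalling receptor for GDNF family ligands, had 9.93, 10.32 and 9.51 in P18 Wt arrays, against 9.26, 9.51, 9.02 and 9.14 in P0 Wt arrays, a difference of 0.68 ± 0.25 (adjusted p = 0.0295). Its lowest P18 Wt array lay just under its highest P0 Wt array. Gfra3, a co-receptor of Ret for artemin, fell by 1.57 (adjusted p = 3e-05). Ngfr, the p75 receptor for neurotrophins, had 6.92, 7.06 and 6.69 in P18 Wt arrays, against 5.28, 5.22, 4.74 and 5.12 in P0 Wt arrays, a difference of 1.80 ± 0.13 (adjusted p = 2.32e-08), and Ntrk2, the BDNF receptor, differed by 0.53 ± 0.20 (adjusted p = 0.0313). Among ligands, Ptn, encoding pleiotrophin, rose by 0.99 (adjusted p = 0.000102), while its relative Mdk, encoding midkine, fell by 1.06 (adjusted p = 0.0161) and Bdnf by 1.53 (adjusted p = 0.0014), the last from values near background. Igf1r, the receptor for insulin-like growth factors, differed by -1.15 ± 0.11 (adjusted p = 5.51e-07).

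Genes of cell division were lower at P18, most of them at background. Of 48 measured mitosis genes, 38 fell and 1 rose, with a median of -1.67. The 3 P18 Wt arrays were all at or under 4 for 40 of the 48, and the 4 P0 Wt arrays for 9. Over the Wt arrays alone 34 of the 48 pass the filter, and the others entered with the help of arrays from mutant mice, so the count and the median are a description. Top2a, the topoisomerase that untangles chromosomes, had 2.07, 2.47 and 2.39 in P18 Wt arrays, against 8.11, 7.24, 7.72 and 8.13 in P0 Wt arrays, a difference of -5.49 ± 0.20 (adjusted p = 1.41e-11). Cdk1, the kinase that starts mitosis, had 2.23, 2.24 and 2.25 in P18 Wt arrays, against 6.67, 6.16, 5.62 and 6.64 in P0 Wt arrays, a difference of -4.03 ± 0.21 (adjusted p = 7.38e-10). Nusap1 and Spc25, proteins of spindle and kinetochore, differed by -4.54 ± 0.27 (adjusted p = 2.19e-09) and -3.93 ± 0.21 (adjusted p = 8.11e-10). For these genes all P18 Wt arrays lay at or under 2.47, and all P0 Wt arrays above 5. Bub3, a spindle checkpoint protein that also acts in RNA splicing, was the exception, with 10.74, 10.44 and 10.95 in P18 Wt arrays, against 8.49, 8.77, 8.67 and 8.72 in P0 Wt arrays and a rise of 2.05 (adjusted p = 6.73e-09). Of 28 genes of DNA replication and S phase, 19 fell and none rose (median -1.22). Rrm2, which makes deoxyribonucleotides, had 3.47, 3.02 and 3.04 in P18 Wt arrays, against 7.83, 7.79, 8.04 and 7.63 in P0 Wt arrays, a difference of -4.65 ± 0.16 (adjusted p = 1.23e-11), and Cdt1 and Mcm7, which license replication origins, differed by -3.45 ± 0.19 (adjusted p = 9.88e-10) and -2.58 ± 0.21 (adjusted p = 6.76e-08). Of 17 regulators of entry into S phase, 11 fell and 2 rose (median -0.80), and 7 and 3 without the arrays with muscle transcripts. Ccna2, cyclin A, fell by 3.67 (adjusted p = 1.28e-09), and the D-type cyclins Ccnd2 and Ccnd1 by 2.12 (adjusted p = 1.46e-06) and 1.48 (adjusted p = 7.08e-06), where Ccnd1 stayed at 9.38 to 9.82 in P18 Wt arrays. The E-type cyclins Ccne1 and Ccne2 rose, by 1.58 (adjusted p = 0.000174) and 1.36 (adjusted p = 0.000148). Of 12 inhibitors of the cycle, 8 were not called. Gadd45a, a stress-induced inhibitor, rose by 1.85 (adjusted p = 3.33e-06), and Btg1, Cdkn1c and Cdkn1a fell. Btg1, an antiproliferative protein of resting cells, had 3.98, 4.78 and 3.82 in P18 Wt arrays, against 8.03, 7.06, 7.23 and 8.38 in P0 Wt arrays, a difference of -3.48 ± 0.30 (adjusted p = 1.39e-07). Cdkn1c, a kinase inhibitor from an imprinted gene, had 8.17, 7.99 and 8.37 in P18 Wt arrays, against 11.67, 10.90, 11.47 and 11.15 in P0 Wt arrays, a difference of -3.12 ± 0.31 (adjusted p = 6.38e-07). Cdkn1b, a related inhibitor, was not called, at 0.16 ± 0.085 (adjusted p = 0.115).

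The promoters of Top2a, Cdk1 and Spc25 are shown because they hold the letters of the cell cycle homology region (CHR), TTTGAA, and of the CCAAT box, CCAAT, motifs known from genes of late cell cycle phases. Capitals mark both motifs on either strand, so TTCAAA and ATTGG are the same motifs read on the other strand. These 3 are the mitosis genes with the largest falls whose windows hold a CHR, and Nusap1, whose fall was larger than those of Cdk1 and Spc25, has neither motif in its window. Over the 36 windows of the 32 falling mitosis genes that have one, the CHR letters were in 63.9% and the CCAAT letters in 75%, against 17.9% and 37.4% of all 32851 windows. In the 22 windows of falling replication genes the shares were 9.09% for the CHR and 63.6% for the CCAAT letters. Both lists were written by function, and members that did not fall were not counted. These shares therefore describe the listed genes and not the stage difference. The windows are chr11:99024140-99024439 (Top2a), chr10:69352863-69353162 (Cdk1) and chr2:69206164-69206463 (Spc25), all on the minus strand of GRCm38.p6.
Top2a: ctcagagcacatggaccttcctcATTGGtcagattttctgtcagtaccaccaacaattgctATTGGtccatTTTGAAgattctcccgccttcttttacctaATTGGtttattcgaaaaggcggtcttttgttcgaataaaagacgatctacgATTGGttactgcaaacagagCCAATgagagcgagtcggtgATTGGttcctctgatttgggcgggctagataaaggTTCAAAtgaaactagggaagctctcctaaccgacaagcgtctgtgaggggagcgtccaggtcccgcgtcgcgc
Cdk1: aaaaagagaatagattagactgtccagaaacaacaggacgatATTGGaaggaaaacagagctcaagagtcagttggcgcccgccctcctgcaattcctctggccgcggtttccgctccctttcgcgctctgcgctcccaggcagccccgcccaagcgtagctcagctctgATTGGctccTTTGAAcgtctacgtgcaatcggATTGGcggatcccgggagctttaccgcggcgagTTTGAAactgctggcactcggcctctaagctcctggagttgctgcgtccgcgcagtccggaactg
Spc25: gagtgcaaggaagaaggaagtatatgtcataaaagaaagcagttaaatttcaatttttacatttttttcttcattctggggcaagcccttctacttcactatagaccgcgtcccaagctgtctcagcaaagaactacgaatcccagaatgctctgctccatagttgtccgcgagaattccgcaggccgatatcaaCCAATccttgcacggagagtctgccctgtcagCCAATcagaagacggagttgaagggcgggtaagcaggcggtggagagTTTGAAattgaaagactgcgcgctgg

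Most chromatin regulators and fetal growth genes fell. Of 19 measured chromatin genes that change as neurons mature, 14 fell and 3 rose (median -0.99), and 8 and 3 without the arrays with muscle transcripts. Ezh2, the Polycomb methyltransferase of dividing cells, had 5.62, 5.79 and 5.91 in P18 Wt arrays, against 8.33, 7.71, 8.28 and 8.12 in P0 Wt arrays, a difference of -2.34 ± 0.19 (adjusted p = 6.95e-08), while Ezh1, its counterpart in non-dividing cells, had 5.88, 6.17 and 5.64 in P18 Wt arrays, against 3.76, 3.73, 4.34 and 3.81 in P0 Wt arrays, a difference of 1.99 ± 0.19 (adjusted p = 4.06e-07). Hdac11, a histone deacetylase abundant in neurons, had 8.96, 8.94 and 9.08 in P18 Wt arrays, against 5.98, 6.18, 5.96 and 6.03 in P0 Wt arrays, a difference of 2.95 ± 0.14 (adjusted p = 2.77e-10). The DNA methyltransferases Dnmt1, Dnmt3a and Dnmt3b fell by 1.27, 0.71 and 1.30, and Uhrf1, which recruits Dnmt1, by 1.85 (adjusted p = 0.00021). Dnmt3b was near background, with 2.53, 2.92 and 2.38 in P18 Wt arrays, against 3.71, 3.69, 4.51 and 3.72 in P0 Wt arrays. Over the Wt arrays alone it does not pass the filter. Of 17 measured imprinted genes, 12 fell and 1 rose (median -1.38). Igf2, the fetal growth factor that shares its imprinted domain with H19, had 4.50, 5.63 and 4.37 in P18 Wt arrays, against 9.44, 9.21, 9.97 and 8.55 in P0 Wt arrays, a difference of -4.46 ± 0.44 (adjusted p = 5.79e-07). Magel2, Dlk1 and Nnat, imprinted genes of other domains, differed by -3.73 ± 0.15 (adjusted p = 2.66e-11), -3.50 ± 0.27 (adjusted p = 3.47e-08) and -2.21 ± 0.21 (adjusted p = 3.31e-07). Impact, an imprinted regulator of translation, rose by 2.13 (adjusted p = 2.77e-10), and Peg3, Usp29 and Gnas were not called, at 0.29 ± 0.14 (adjusted p = 0.0848), 0.21 ± 0.24 (adjusted p = 0.474) and 0.10 ± 0.24 (adjusted p = 0.742). Of 6 measured members of a fetal RNA-binding and growth list, 5 fell. Igf2bp3, a fetal RNA-binding protein, had 2.44, 2.46 and 2.47 in P18 Wt arrays, against 7.21, 7.38, 6.91 and 6.78 in P0 Wt arrays, a difference of -4.61 ± 0.17 (adjusted p = 1.41e-11). Mycn, the transcription factor amplified in some neuroblastomas, had 7.64, 7.20 and 7.07 in P18 Wt arrays, against 9.13, 9.39, 8.78 and 9.05 in P0 Wt arrays, a difference of -1.79 ± 0.17 (adjusted p = 4.07e-07), and Myc differed by -1.25 ± 0.27 (adjusted p = 0.000951). Of 23 ribosome biogenesis genes, 14 fell and none rose (median -0.42), and 5 fell without the arrays with muscle transcripts. Ddx21, a nucleolar helicase, fell by 1.27 (adjusted p = 1.2e-05). Of 8 measured ribosomal protein genes, 6 fell and none rose (median -0.50).

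Most measured genes of class I antigen presentation and of the interferon response rose. Of 23 measured members of the class I and interferon list, 19 rose and none fell, 17 of them at least 2-fold (median 1.83), and for 7 of the 23 all P0 Wt arrays were at or under 4. Ifit1, an interferon-induced protein that binds viral RNA, had 8.90, 7.73 and 8.20 in P18 Wt arrays, against 2.10, 2.11, 2.45 and 2.24 in P0 Wt arrays, a difference of 6.05 ± 0.51 (adjusted p = 9.69e-08). Psmb8, a catalytic subunit of the immunoproteasome, had 7.92, 7.47 and 7.83 in P18 Wt arrays, against 3.07, 3.41, 2.67 and 3.25 in P0 Wt arrays, a difference of 4.64 ± 0.24 (adjusted p = 5.13e-10). H2-K1, a classical class I heavy chain, had 10.15, 9.86 and 10.45 in P18 Wt arrays, against 5.67, 7.20, 7.11 and 7.07 in P0 Wt arrays, a difference of 3.39 ± 0.34 (adjusted p = 6.63e-07), and B2m, its light chain, differed by 1.50 ± 0.14 (adjusted p = 2.46e-07). Because H2-K1 and H2-D1 belong to a family of similar genes, probes may be shared between them. Ifih1, a sensor of double-stranded RNA, Oasl2 and Gbp2, further interferon-induced genes, differed by 3.21 ± 0.38 (adjusted p = 3.8e-06), 2.79 ± 0.37 (adjusted p = 1.24e-05) and 2.58 ± 0.29 (adjusted p = 2.57e-06). Irf9 and Ifitm3 were not called, at 0.57 ± 0.27 (adjusted p = 0.0825) and 0.30 ± 0.24 (adjusted p = 0.308). Of 7 measured class II and antigen presentation genes, 5 rose and 1 fell, but for 4 of the 7 all P0 Wt arrays were at or under 4, so this count is a description. H2-Aa, a class II chain, had 8.32, 8.42 and 8.99 in P18 Wt arrays, against 4.13, 2.93, 5.06 and 4.03 in P0 Wt arrays, and H2-Eb1, another, had 7.26, 6.85 and 7.53 in P18 Wt arrays, against 2.79, 2.81, 3.33 and 2.81 in P0 Wt arrays. The groups did not overlap in either, and Cd74, the invariant chain, differed by 2.98 ± 0.18 (adjusted p = 3.67e-09). Of 18 measured macrophage genes, in contrast, 12 fell and 1 rose (median -1.05), and 5 and 1 without the arrays with muscle transcripts. Lyve1, Pf4 and F13a1, genes of tissue-resident macrophages, differed by -3.18 ± 0.60 (adjusted p = 0.000362), -3.06 ± 0.43 (adjusted p = 2.05e-05) and -2.13 ± 0.58 (adjusted p = 0.00545). Csf1r, the receptor that macrophages depend on, was not called, at -0.49 ± 0.26 (adjusted p = 0.117). The rising member was Adgre1, a macrophage surface receptor, with 8.49, 8.23 and 8.99 in P18 Wt arrays, against 6.80, 7.31, 7.53 and 6.46 in P0 Wt arrays, a difference of 1.55 ± 0.23 (adjusted p = 3.21e-05).

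The promoters of Ifit1, Ifih1 and Gbp2 are shown because they hold the core of the interferon-stimulated response element (ISRE), searched on both strands as TTTC, any 2 bases and TTTC again, in capitals (GAAA, any 2 bases and GAAA where it lies on the other strand). It lay in 35% of the 20 windows of the 16 rising class I and interferon genes that have one, against 3.44% of all windows, and these 3 are the rising genes with the largest differences that hold it. The list was written by function, and members that did not rise were not counted. This share therefore describes the listed genes and not the stage difference. The windows of Psmb8 and H2-K1 do not hold these letters. The windows are chr19:34640639-34640938 (Ifit1, plus strand), chr2:62646206-62646505 (Ifih1, minus strand) and chr3:142620413-142620712 (Gbp2, plus strand).
Ifit1: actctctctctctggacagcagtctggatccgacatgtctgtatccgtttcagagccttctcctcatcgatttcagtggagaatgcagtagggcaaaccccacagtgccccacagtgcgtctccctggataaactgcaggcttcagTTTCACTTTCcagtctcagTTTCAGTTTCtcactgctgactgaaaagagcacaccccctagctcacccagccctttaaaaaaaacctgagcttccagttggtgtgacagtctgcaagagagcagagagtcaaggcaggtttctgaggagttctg
Ifih1: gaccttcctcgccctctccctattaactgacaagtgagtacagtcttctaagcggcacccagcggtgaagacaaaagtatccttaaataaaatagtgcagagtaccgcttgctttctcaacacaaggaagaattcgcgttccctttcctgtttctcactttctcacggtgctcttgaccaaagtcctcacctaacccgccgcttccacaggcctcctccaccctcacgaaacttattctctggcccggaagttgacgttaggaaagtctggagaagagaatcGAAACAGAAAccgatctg
Gbp2: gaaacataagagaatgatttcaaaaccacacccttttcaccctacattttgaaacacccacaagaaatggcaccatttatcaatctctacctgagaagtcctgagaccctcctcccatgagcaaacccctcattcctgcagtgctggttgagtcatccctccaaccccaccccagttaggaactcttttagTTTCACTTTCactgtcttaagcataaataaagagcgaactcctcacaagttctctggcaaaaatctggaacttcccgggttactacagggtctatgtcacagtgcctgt

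Most extracellular matrix genes fell. Of 44 measured members, 35 fell and 1 rose (median -1.84), and 31 of the falling ones were at least 2-fold lower. Tnc, the adhesion-modulating protein tenascin C, had 4.85, 5.36 and 4.38 in P18 Wt arrays, against 10.61, 11.09, 10.98 and 10.32 in P0 Wt arrays, a difference of -5.89 ± 0.28 (adjusted p = 2.56e-10). Fbn2, a fibrillin of fetal microfibrils, had 4.49, 4.84 and 3.98 in P18 Wt arrays, against 9.57, 9.36, 9.74 and 9.29 in P0 Wt arrays, a difference of -5.05 ± 0.18 (adjusted p = 1.41e-11), and Mfap2, which binds fibrillins, differed by -4.95 ± 0.19 (adjusted p = 2.63e-11). Eln, elastin, had 2.22, 2.23 and 2.22 in P18 Wt arrays, against 6.95, 7.92, 8.78 and 7.96 in P0 Wt arrays, a difference of -5.68 ± 1.12 (adjusted p = 0.000582), Lox, which cross-links collagen and elastin, differed by -3.76 ± 0.37 (adjusted p = 5.17e-07), and Col1a1, a chain of type I collagen, by -3.49 ± 0.42 (adjusted p = 4.79e-06). Lum, a collagen-binding proteoglycan, was the rising member, at 0.89 ± 0.27 (adjusted p = 0.0116), Dcn, a related proteoglycan, was not called, at 0.88 ± 0.40 (adjusted p = 0.0724), and Sparc, a collagen-binding glycoprotein, was not called either, at -0.088 ± 0.17 (adjusted p = 0.685). The list's median level was 7.17, 7.30 and 6.86 in P18 Wt arrays, against 8.79, 8.46, 9.07 and 8.62 in P0 Wt arrays. The part of neighbouring tissue in these values was not tested. Without the arrays with muscle transcripts 26 members fell, and Lum was not called. Of 17 endothelial genes, 10 fell and 1 rose (median -1.04), and 6 and 1 without those arrays. Cldn5, a tight junction protein, Tek, an angiopoietin receptor, and Pecam1 differed by -3.53 ± 0.51 (adjusted p = 2.64e-05), -3.03 ± 0.31 (adjusted p = 8.06e-07) and -2.53 ± 0.37 (adjusted p = 3.36e-05), and Abcb1a, an efflux transporter of barrier vessels, rose, with 9.48, 9.46 and 9.51 in P18 Wt arrays, against 5.54, 6.03, 5.82 and 5.99 in P0 Wt arrays, a difference of 3.64 ± 0.27 (adjusted p = 2.84e-08). Of 10 mural cell genes, 7 fell and none rose (median -1.48), and 3 fell without those arrays. Acta2, smooth muscle actin, had 6.61, 7.65 and 7.01 in P18 Wt arrays, against 10.46, 11.02, 12.26 and 9.93 in P0 Wt arrays, a difference of -3.83 ± 0.84 (adjusted p = 0.00134). P0 Wt replicate 3 was the highest array for Acta2, and for Myh11, smooth muscle myosin, at 2.76, 2.81 and 2.71 in P18 Wt arrays and 4.44, 5.15, 7.59 and 3.62 in P0 Wt arrays.

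Glial genes were mixed. Of 17 measured genes of Schwann and satellite glia, 7 rose and 5 fell (median 0.42), and 5 and 3 without the arrays with muscle transcripts. S100b, a calcium-binding protein of glia, had 7.73, 7.69 and 7.87 in P18 Wt arrays, against 6.41, 4.01, 5.58 and 6.78 in P0 Wt arrays, a difference of 2.07 ± 0.47 (adjusted p = 0.00161), Apoe, a lipid carrier, differed by 1.41 ± 0.28 (adjusted p = 0.000566), and Glul, glutamine synthetase, by 1.17 ± 0.22 (adjusted p = 0.000396), both known from satellite glia. Kcnj10, the glial inward rectifier, differed by 1.02 ± 0.30 (adjusted p = 0.01). Ednrb, the endothelin receptor of neural crest cells, fell by 1.22 (adjusted p = 0.000196), and Ncam1, an adhesion molecule, by 0.73 (adjusted p = 3.14e-05). Of 16 measured myelin genes, 3 rose, 4 fell and 9 were not called (median 0.20). Mbp, myelin basic protein, had 9.83, 9.91 and 9.72 in P18 Wt arrays, against 10.43, 7.64, 11.60 and 9.22 in P0 Wt arrays, a difference of 0.10 ± 0.60 (adjusted p = 0.903). The P18 Wt arrays were thus even and the P0 Wt arrays ran from the lowest to the highest of the 7. Ncmap and Egr2, genes of myelinating Schwann cells, were highest in P0 Wt replicates 3 and 1 too. Ncmap had 2.51, 2.43 and 2.17 in P18 Wt arrays, against 4.27, 2.35, 7.86 and 2.16 in P0 Wt arrays, and Egr2 had 2.84, 2.90 and 2.92 in P18 Wt arrays, against 6.33, 2.90, 7.43 and 3.10 in P0 Wt arrays. These 3 genes differed more among P0 Wt arrays than among P18 Wt arrays.

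Among metabolic genes, 10 of 13 measured glycolysis genes rose and none fell (median 0.68), and 5 rose without the arrays with muscle transcripts. Aldoc, the neural form of aldolase, had 11.76, 11.85 and 11.96 in P18 Wt arrays, against 9.55, 10.01, 9.83 and 10.22 in P0 Wt arrays, a difference of 1.95 ± 0.16 (adjusted p = 9.25e-08). Eno2, the neural form of enolase, differed by 1.77 ± 0.14 (adjusted p = 6.56e-08), and Pkm, pyruvate kinase, differed by 1.29 ± 0.11 (adjusted p = 1.78e-07). Of 35 respiratory chain genes, 12 rose and none fell, by at most 0.77 (median 0.27), and 23 were not called. None of the 35 was called without the arrays with muscle transcripts. Of 16 cholesterol synthesis genes, 4 rose, 1 fell and 11 were not called, and 1 rose and 0 fell without those arrays. Lss, lanosterol synthase, had 8.20, 8.42 and 7.62 in P18 Wt arrays, against 9.10, 9.43, 10.49 and 8.13 in P0 Wt arrays, a difference of -1.21 ± 0.40 (adjusted p = 0.0193), with P0 Wt replicate 3 highest. Of 18 glucocorticoid-responsive and circadian genes, 13 rose and 2 fell (median 0.62), and 5 and 0 without those arrays. Dbp, a clock-controlled transcription factor, had 7.08, 6.63 and 7.37 in P18 Wt arrays, against 3.31, 3.12, 3.97 and 2.82 in P0 Wt arrays, a difference of 3.72 ± 0.23 (adjusted p = 4.49e-09), and Nr1d2, a nuclear receptor of the clock, differed by 1.91 ± 0.26 (adjusted p = 1.76e-05). Tsc22d3, induced by glucocorticoids, differed by 1.47 ± 0.22 (adjusted p = 4.18e-05). Arntl and Cry1, core clock genes, fell by 0.77 (adjusted p = 0.00755) and 0.80 (adjusted p = 0.00143). The labels give no time of day of dissection, and its part in these values was not tested. Of 10 ion pump and transporter genes of neurons, 6 rose and 3 fell, and 3 and 1 without those arrays. Atp1b1, a subunit of the sodium pump, rose by 1.02 (adjusted p = 3.57e-07).

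Of 12 measured apoptosis genes, 3 rose and 5 fell, and 3 and 2 without the arrays with muscle transcripts. Bcl2, which protects neurons, differed by 0.74 ± 0.20 (adjusted p = 0.00494), Hrk and Bbc3, pro-death BH3-only genes, by -1.63 ± 0.22 (adjusted p = 1.45e-05) and -0.78 ± 0.23 (adjusted p = 0.00912), and Casp8, an initiator caspase, by -1.19 ± 0.35 (adjusted p = 0.00959). Of 9 measured genes of the ERK response, 2 rose and 2 fell, and 2 and 0 without those arrays. Fos, an immediate early gene, had 6.60, 6.62 and 6.56 in P18 Wt arrays, against 8.47, 8.77, 7.80 and 8.72 in P0 Wt arrays, a difference of -1.85 ± 0.50 (adjusted p = 0.00528). Of 11 genes of RNA quality and stress 4 rose and 2 fell, and 3 and 1 without those arrays. Ddit4, a stress-induced inhibitor of mTOR, rose by 2.18 (adjusted p = 5.29e-05). Of 6 measured cholinergic genes 1 rose and none fell, and 2 and 0 without those arrays. Ache, acetylcholinesterase, was the member that rose, with 9.83, 9.996 and 9.82 in P18 Wt arrays, against 7.76, 8.11, 8.18 and 8.31 in P0 Wt arrays, a difference of 1.79 ± 0.23 (adjusted p = 6.95e-06). Of 16 skeletal muscle genes, 5 fell and 1 rose (0 and 1 without the arrays with muscle transcripts), and of 6 fat genes 3 fell and none rose (0 and 0). Acta1, skeletal actin, had 9.13, 3.45 and 3.71 in P18 Wt arrays, against 13.91, 12.99, 10.998 and 6.21 in P0 Wt arrays, a difference of -5.60 ± 1.71 (adjusted p = 0.012), and its groups overlapped.

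**Figure D4:**
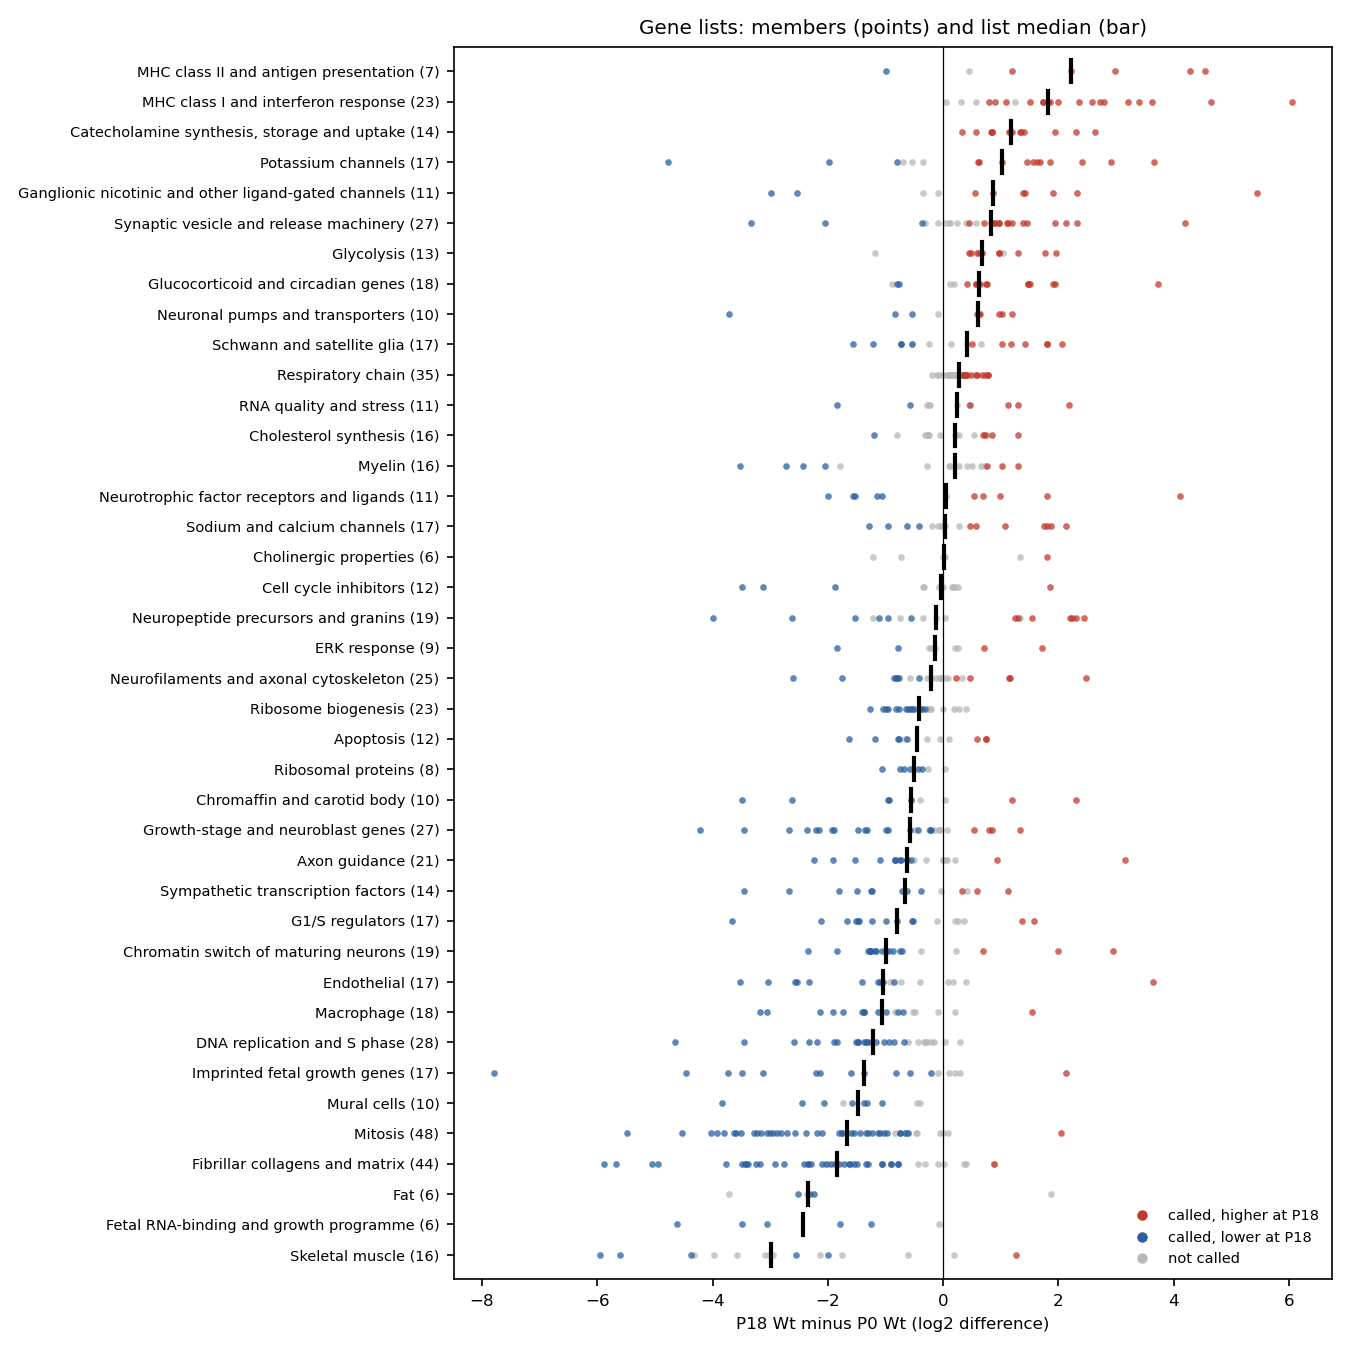
Log2 difference between P18 Wt and P0 Wt (horizontal axis) of the measured members of every list with at least 6 of them (number in brackets), called higher at P18 in red, called lower in blue and not called in grey, with a black bar at the list's median. All 14 catecholamine genes lie right of 0, and all but a few mitosis, replication and matrix genes lie left of it.

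Het ganglia gave the same comparison of stages in arrays that none of the Wt values share. Of 9973 genes, 4769 (47.8%) were called between P18 Het and P0 Het, 2222 higher (22.3%) and 2547 lower (25.5%) at P18. In both genotypes and in the same direction 4001 genes were called, 83.9% of the Het calls and 73% of the Wt calls. Across genes, which are not independent replicates, the differences in Het and Wt had a Pearson correlation of 0.901. The sign in Het was that of Wt for 97.2% of the genes called in Wt and for 70.6% of the others. The catecholamine list had 10 of 14 members called higher in Het (median 0.90), the class I and interferon list 16 of 23 (median 1.81), and the mitosis list 46 of 48 called lower (median -3.05, against -1.67 in Wt). In the mitosis list the stage difference was called unlike in Het and Wt for 2 members by limma. It passed an unadjusted p of 0.05 for 39 of the 48, against 989 of all 9973 genes. Only 34 of the 48 pass the filter over the Wt arrays alone, and for 9 all P0 Wt arrays were at or under 4. The list was thus measured partly through arrays from mutant mice. Its counts and medians in Het and Wt are a description. Other lists went differently too. The myelin list had 9 members called higher and 1 lower in Het (median 1.17), against 3 and 4 in Wt (median 0.20). The cholesterol synthesis list had 0 higher and 2 lower in Het (median -0.11), against 4 and 1 in Wt (median 0.21), and the fat list had no called member in Het, against 3 lower in Wt. The macrophage list had 1 higher and 7 lower in Het (median -0.63), against 1 and 12 in Wt (median -1.05). Of its members, Pf4 fell by 1.51 in Het (adjusted p = 0.0173). Lyve1 and F13a1 were not called there, at -0.78 ± 0.68 (adjusted p = 0.38) and -0.0077 ± 0.65 (adjusted p = 0.995). Among the 40 lists with at least 6 measured members, the median differed in sign between Het and Wt in 4. By limma the stage difference was called unlike in Het and Wt for no member of the myelin, cholesterol synthesis, fat or macrophage lists. It passed an unadjusted p of 0.05 for 5, 2, 0 and 6 of their members. The difference between both stage differences was called for 14 genes (0.14%), 8 with a more positive and 6 with a more negative difference in Het, and 12 of the 14 were also called in Wt. This count was 2 to 28 when 1 Wt or Het array was left out, and moved by over 1.5 times without every such array except P0 Wt replicates 1 and 4, so the 14 genes rest on few arrays.

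Slc38a4, an amino acid transporter gene that is imprinted in mice, fell in both genotypes and further in Het, by 5.58 in Het and 3.10 in Wt (adjusted p of the difference = 0.000533). It had 2.42 and 2.28 in P18 Het arrays, against 7.96, 8.08, 7.80 and 7.88 in P0 Het arrays, and 2.39, 2.32 and 2.62 in P18 Wt arrays, against 5.91, 5.59, 5.34 and 5.35 in P0 Wt arrays, so the genotypes were alike at P18 and apart at P0. Ect2 and Shcbp1, genes of dividing cells, fell by 4.87 and 3.91 in Het and by 3.50 and 2.89 in Wt. Kif2c, a mitotic kinesin, fell by 1.14 in Het and was not called in Wt, at -0.06 ± 0.13 (adjusted p = 0.714). Klf9, a transcription factor induced by glucocorticoids and thyroid hormone, rose by 3.59 in Het and by 1.94 in Wt (adjusted p of the difference = 0.0333), with 9.87 and 9.97 in P18 Het arrays, against 6.20, 6.12, 6.47 and 6.53 in P0 Het arrays, and 9.40, 9.40 and 9.53 in P18 Wt arrays, against 7.33, 7.33, 7.69 and 7.65 in P0 Wt arrays. Cdkn1a had a difference of 0.17 ± 0.28 (adjusted p = 0.657) in Het and fell by 1.88 in Wt (adjusted p of the difference = 0.0468). Pappa, a protease that cuts insulin-like growth factor binding proteins, had 4.66 and 5.38 in P18 Het arrays, against 2.75, 2.66, 2.69 and 2.71 in P0 Het arrays, and 2.82, 2.80 and 2.79 in P18 Wt arrays, against 2.67, 2.79, 2.68 and 2.71 in P0 Wt arrays. The P18 Het arrays alone stood above background. Cpne9, a copine, rose less in Het, at 2.59 ± 0.21 (adjusted p = 1.01e-07), against 4.46 ± 0.19 (adjusted p = 5.52e-11) in Wt. Htr3a, Avil and Mbp, whose P0 Wt arrays spread widely, had Het differences of 8.001 ± 0.97 (adjusted p = 8.15e-06), 7.96 ± 0.96 (adjusted p = 7.8e-06) and 2.89 ± 0.68 (adjusted p = 0.00255), and these were not called different from the Wt ones (adjusted p = 0.534, 0.443 and 0.287).

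**Figure D5:**
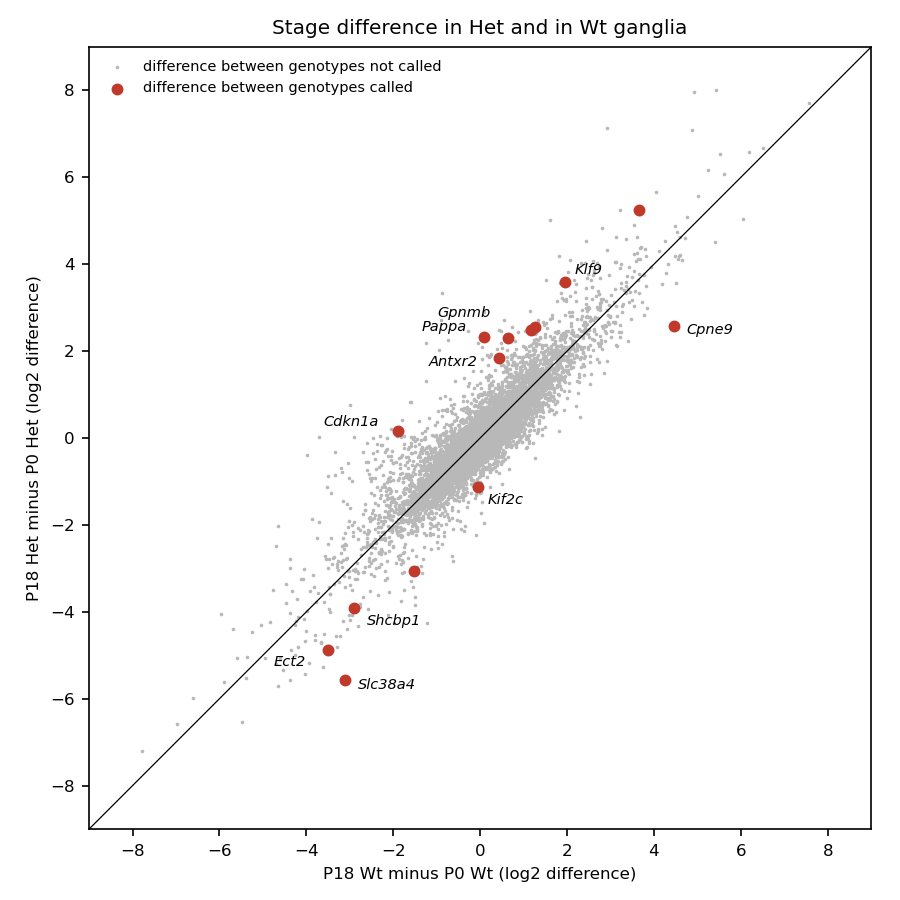
Log2 difference between P18 and P0 in Het ganglia (vertical axis, 2 and 4 arrays) against that in Wt ganglia (horizontal axis, 3 and 4 arrays) for 9973 genes (grey), with the line of equality and the 14 genes whose differences were called unlike in red. Most genes lie near the line, and Slc38a4, Ect2, Shcbp1 and Kif2c lie below it.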

How the data were processed

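Total RNA of sympathetic ganglia from wild-type and Alk knock-in mice was hybridised to Affymetrix mouse arrays. The deposited log2 values were made by the authors with GCRMA, a background correction and normalization method whose version is not given in the sources used here, on probe sets redefined per gene. They were used as deposited, with no further scaling. Per the labels RNA was extracted with a miRNeasy kit from tumors, while the study's methods name another reagent for ganglia, so the extraction is uncertain. Groups came from the sample titles and characteristics. Probe sets were named through their Entrez IDs, and 16464 of 17306 had a gene symbol. Some genes are not reported here.

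Genes with a log2 value above 4 in at least 2 of 17 arrays were fitted with limma 3.58.1 in R 4.3.3, with 1 mean per group over all 17 arrays and eBayes with trend and robust settings. P-values were two-sided and adjusted by Benjamini-Hochberg over all 9973 genes, and the threshold for a call was an adjusted p of 0.05. A value after ± is the SE of a difference. The fit was tested on simulated data. The number of arrays limits the precision. Members and the 45 gene lists were chosen with earlier results of these data known. Named genes were the 12 largest called rises and falls without overlap and with a higher mean above 6, up to 5 rising and 5 falling called members of each list, and a few genes of interest. Further members, the genes that were not called among them, were named after their values were seen. Alternatives were other filters, moderation, scalings, sets of arrays, array weights, a fold limit, a replicate block and the t-test named in the methods.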

Additional observations from a re-analysis of the deposited data

Results flagged for a closer look

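In 21 of the 213 genes named above, 1 of the 4 P0 Wt arrays lay far from the other 3, by a gap that chance gives in about 1 in 20 groups. The gap was largest relative to the group's range in replicate 3 for 8 genes, in replicate 4 for 7 genes and in replicates 1 and 2 for 3 genes each. In P0 Wt replicate 3 these were Dnmt3a at 9.02, Dnmt3b at 4.51, Ezh1 at 4.34, Gpr37l1 at 2.93, H2-Eb1 at 3.33, Qdpr at 12.08, Tsc22d3 at 8.67 and Tuba4a at 9.17. In P0 Wt replicate 4 these were Agtr2 at 9.71, Cckar at 5.86, Nrk at 6.55, Scn1a at 5.87, Scn2b at 7.40, Tlx2 at 4.13 and Uhrf1 at 3.07. In P0 Wt replicate 1 these were Eya1 at 10.27, H2-K1 at 5.67 and Pcsk1 at 5.50. In P0 Wt replicate 2 these were Lum at 8.58, Sox11 at 9.65 and Syt4 at 13.57. Among the P0 Het arrays, replicate 6 was apart for Cdkn1a, at 5.88.

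The stage difference was called unlike in Het and Wt ganglia, by limma with an adjusted p under 0.05, for 14 genes. As the Het minus the Wt difference on the log2 scale, it was more negative in Het for Slc38a4 (-2.47), Cpne9 (-1.87), a probe set with no gene symbol (-1.54), Ect2 (-1.37), Kif2c (-1.08) and Shcbp1 (-1.02), and more positive for Rassf4 (1.29), Sel1l3 (1.31), Antxr2 (1.40), a probe set with no gene symbol (1.59), Klf9 (1.64), Gpnmb (1.67), Cdkn1a (2.05) and Pappa (2.23).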

How the results depend on the processing

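The count of genes called between P18 Wt and P0 Wt, 5480, stayed within 1.5 times under every alternative except a fold limit, where limma tested for a log2 difference above 1 and called 878 genes, 480 higher and 398 lower, and the comparison without the 4 arrays with muscle transcripts, chosen after seeing the data, with 3242 called, 1697 higher and 1545 lower. Of these 3242, 3099 were among the 5480, and 29 of the 5480 had the other sign there. No called gene changed sign under the other alternatives. With no filter 7538 genes were called, 4843 of them higher, so that 64.2% of calls were higher against 50.8% with the filter, and 4454 were called with a filter at log2 6 in 3 arrays. Centring each array on its median moved the median of all genes to -0.0424 and the share of higher calls to 46.7%. The methods' t-test passed 5487 genes unadjusted and 4573 after Benjamini-Hochberg adjustment. Leaving out 1 Wt array gave 4764 to 5407 calls, 2374 to 2726 higher and 2379 to 2681 lower.

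Without the arrays with muscle transcripts, the muscle genes Des, Myh8, Myh3 and Actn2 reversed to 0.021, 0.045, 0.13 and 0.0068. Their cause was not tested. The count of genes with unlike stage differences in Het and Wt, 14, was 31 with no filter, 3 with the stricter filter, 23 with plain eBayes, 7 after quantile normalization, and 2 to 28 without 1 array, and the cause was not tested. The Het count of 4769 was 3498 to 4576 without 1 array and 6227 with the Het arrays alone. Deviations of P18 Wt and P0 Wt arrays with the same number correlated at 0.0704, 0.0928 and -0.179, and those with different numbers at -0.198 to 0.228. With so few arrays these values cannot tell a pairing by number from none. With the replicate number as a block 5410 genes were called.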
